A study of Mus musculus with 23 samples.

Results

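The Toll-like receptor genes described here were the receptors Tlr1, Tlr2, Tlr3, Tlr4, Tlr6, Tlr7, Tlr9 and Tlr13, the related receptor Cd180 and the shared adaptor Myd88. They were taken by name. For each gene the probe sets annotated with its symbol alone were kept, and of these the one whose 23 values had the highest mean stood for the gene. Each of the 10 genes had 1 such probe set, and the 10 stood among 19937 genes measured. Levels are log2 values made with RMA, a method that equalises arrays and summarises probes. They can be compared between arrays for 1 gene and not between genes.

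RNA of sorted mouse marrow cells was hybridised to 23 Affymetrix arrays in 9 groups, to compare cells with and without the myeloid transcription factor C/EBPa and leukaemic with non-leukaemic cells. Donors were Mx.1-Cre- C/EBPa f/f controls or Mx.1-Cre+ C/EBPa f/f conditional knockouts. The Mx1 promoter responds to interferon, and donors of both genotypes had 3 injections of poly I:C, a double-stranded RNA that TLR3 binds. No group without poly I:C was analysed here. Sorted common myeloid progenitors (CMPs) of control (n = 4) and knockout mice (n = 4) and granulocyte-macrophage progenitors (GMPs) of controls (n = 3) were taken 5 days after the injections. The other 12 arrays came from irradiated congenic recipients of cells cultured with cytokines, among them SCF at 100 ng/ml and IL-3 at 10 ng/ml, infected with the MSCV-MLL-AF9-IRES-GFP retrovirus and given with radioprotective marrow. MLL-AF9 is a leukaemia fusion gene. Leukaemic GMPs (L-GMPs) of control cells came from primary mice (n = 2) and from second transplants (n = 2). GFP+ stem cell-enriched KSLs (n = 2) and GFP+ CMPs (n = 3) came from knockout recipients that had not developed leukaemia, and 2 of these mice gave both cell types. Knockout L-GMPs came from 1 primary mouse, injected with vectors expressing IL-3 and GM-CSF 2 to 4 months after transplantation, and from 2 recipients of its marrow. The 3 knockout L-GMP arrays therefore stand for 1 leukaemia. GFP is named in the labels for the primary knockout L-GMPs and not for the other L-GMPs. Strain background and age are not given in the sources used here. Apart from the mouse numbers of the knockout recipients, the labels do not say that replicates were separate mice, so p-values speak only of the scatter among these samples.

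Toll-like receptors are membrane proteins of innate immune cells that bind conserved parts of microbes. TLR1, TLR2, TLR4 and TLR6 act at the cell surface, where TLR2 pairs with TLR1 or TLR6 to bind lipopeptides and TLR4 binds lipopolysaccharide, whereas TLR3, TLR7, TLR9 and TLR13 sense nucleic acids inside endosomes. Most of them signal through the adaptor MYD88 to NF-kB and interferon regulatory factors, and TLR3 uses TICAM1 instead. Stem and progenitor cells of the marrow also carry some of these receptors.

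RefSeq promoters (GRCm38.p6) were found for 8 of the 10 genes, Tlr4 and Tlr7 not among them. The 120 bases before the start site are shown for the 4 genes that rose in the knockout leukaemia (Tlr1, Tlr9, Tlr13 and Cd180) and for Tlr3, which alone held a match to the C/EBP motif. Capitals mark matches to TTGCNNAA, a C/EBP motif, or GAGGAA, the core bound by the myeloid factor PU.1, on either strand.
Tlr1, chr5:64933559-64933678, minus strand: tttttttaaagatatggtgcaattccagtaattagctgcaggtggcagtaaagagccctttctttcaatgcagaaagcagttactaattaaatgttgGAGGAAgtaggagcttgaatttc
Tlr9, chr9:106222478-106222597, plus strand: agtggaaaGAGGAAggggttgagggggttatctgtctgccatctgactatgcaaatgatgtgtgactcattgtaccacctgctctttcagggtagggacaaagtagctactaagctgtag
Tlr13, chrX:106143155-106143274, plus strand: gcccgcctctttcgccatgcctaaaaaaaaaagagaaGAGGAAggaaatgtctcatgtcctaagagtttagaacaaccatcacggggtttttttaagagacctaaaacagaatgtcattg
Cd180, chr13:102693427-102693546, plus strand: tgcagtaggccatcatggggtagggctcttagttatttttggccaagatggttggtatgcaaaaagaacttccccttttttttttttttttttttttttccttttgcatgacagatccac
Tlr3, chr8:45410381-45410500, minus strand: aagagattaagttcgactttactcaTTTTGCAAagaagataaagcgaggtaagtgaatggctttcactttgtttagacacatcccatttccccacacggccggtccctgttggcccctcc

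In the 250 bases before the start, GAGGAA or its complement TTCCTC was found in Tlr1 (23 to 18 bases before the start), Tlr9 (112 to 107) and Tlr13 (83 to 78), 3 of 8 genes, and in 23.1% of 27025 mouse promoters. TTGCNNAA or TTNNGCAA was found in Tlr3 alone, 95 to 88 bases before the start, 1 of 8 genes, against 9.55% of all promoters. The 2 motifs share no position in these genes. A match describes letters and was not tested as a binding site.

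Cebpa, the deleted gene, lay between 7.19 and 7.96 on the 11 control arrays and between 4.33 and 5.55 on the 12 knockout arrays, as labelled. High Xist, a transcript of female cells, was seen on 7 of 11 control and 9 of 12 knockout arrays, and groups were not balanced for it: 3 of 4 control but 1 of 4 knockout CMP arrays were high, and 1 of 4 control but 3 of 3 knockout L-GMP arrays. The median distance of a gene from its group mean was 0.0745 to 0.0762 in the 3 groups of untransplanted marrow and 0.0776 to 0.161 in the 5 transplanted groups with over 1 array. Differences were tested in 1 limma fit over all 23 arrays, which share that spread. A gene passed at a Benjamini-Hochberg adjusted p below 0.05 over all genes. Because the transplanted groups spread more, the fit restricted to the arrays compared is given beside it where it changes a call.

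**Figure D1:**
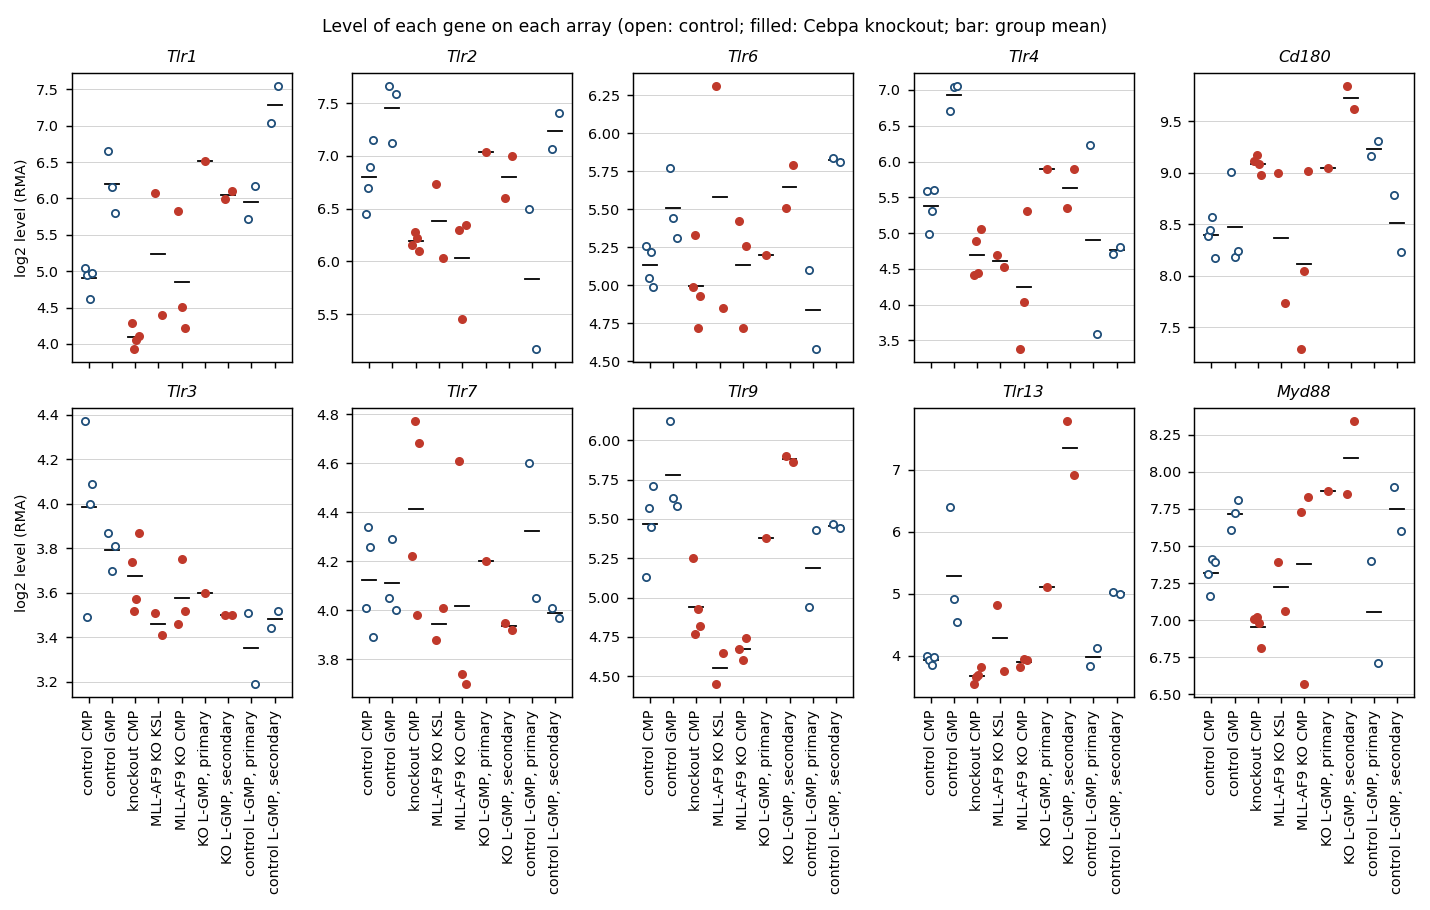
Log2 level (RMA) of each of the 10 genes on each of the 23 arrays, by group; open points are control and filled points knockout arrays, and the bar is the group mean. Tlr13 reached 7.78 and 6.92 in secondary knockout L-GMPs and stayed at or below 4.81 on the MLL-AF9 knockout progenitors, and Cd180 lay above the control CMPs on all 4 knockout CMP arrays.

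Tlr13, Tlr1 and Tlr4 varied over the marrow populations more than most genes did. The highest and lowest group means of Tlr13 were 3.68 log2 units apart, those of Tlr1 3.19 and those of Tlr4 2.69, spans that exceeded those of 99.1%, 98.6% and 97.7% of all genes. The other genes spanned between 0.48 (Tlr7) and 1.62 (Tlr2). None of the 10 lay at the floor of 3, the lowest value the deposited table holds, on any array.

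Between knockout leukaemia and knockout progenitors without leukaemia 4 of 10 genes rose (Tlr13, Tlr9, Cd180 and Tlr1) and 0 fell, where 13.2% of all genes passed, 7.27% upward. With the 3 arrays of the 1 leukaemia averaged into 1 sample 2 of 10 passed, Tlr13 and Tlr9, and with only the 8 arrays compared 1 of 10, Tlr9, so the calls of Cd180 and Tlr1 were lost in both. KSL and CMP arrays of the same mouse were fitted as separate samples here and were not averaged by mouse. All 10 differences were positive, with a median of 0.86 against -0.02 over all genes. In 5 of 10 (Tlr4, Tlr9, Tlr13, Cd180 and Myd88) every L-GMP array lay above every progenitor array, against 6.61% of all genes that did so upward and 12.6% in either direction. These L-GMPs and progenitors also differed in sorted cell type and in the IL-3 and GM-CSF vectors, named for the leukaemia alone. Neither can be told apart from leukaemia. Of the genes used as sorting markers all 5 measured passed here, Cd34, Fcgr2b and Fcgr3 upward and Kit and Il7r downward, against the 13.2%. Between knockout and control L-GMPs 1 of 10 rose, Tlr13, where 3.27% of genes passed, 2.1% upward, and Tlr13 was also the 1 gene of the 10 whose arrays did not overlap, against 13.9%.

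In untransplanted marrow the group means of Tlr1, Tlr2, Tlr4, Tlr6, Tlr9, Tlr13 and Myd88 were highest in GMPs and lowest in knockout CMPs, whereas Tlr3 was highest in control CMPs and Tlr7 and Cd180 in knockout CMPs. The 23-array fit passed none of these differences. Knockout against control CMPs gave 0 of 10 with limma, where 4.91% of genes passed, although 5 of 10 had an unadjusted p below 0.05. In 5 of 10 the arrays did not overlap, Cd180 above and Tlr1, Tlr2, Tlr13 and Myd88 below the controls, against 21.1% of all genes, 9.86% above and 11.3% below. These 5 passed when only the 8 arrays compared were fitted, where 16.2% of genes passed. The median difference was -0.34 against 0.00 over all genes. GMPs against CMPs of control marrow gave 0 of 10 with limma, where 1.05% passed, and 4 of 10 had an unadjusted p below 0.05. All 3 GMP arrays lay above all 4 CMP arrays for Tlr1, Tlr4, Tlr6, Tlr13 and Myd88, 5 of 10 against 8.34% of genes above and 16.3% in either direction. Tlr1 and Tlr4 passed when only the 7 arrays compared were fitted, where 3.23% of genes passed. With array weights 6 of 10 passed between knockout and control CMPs (18.9% of genes) and 4 between GMPs and CMPs (6.3%). With the 11 untransplanted arrays alone, chosen after the data were seen, 5 (17.2%) and 3 (5.72%) passed, and Tlr1, Tlr4 and Myd88 were among them in both comparisons. These 2 comparisons share the control CMP arrays.

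**Figure D2:**
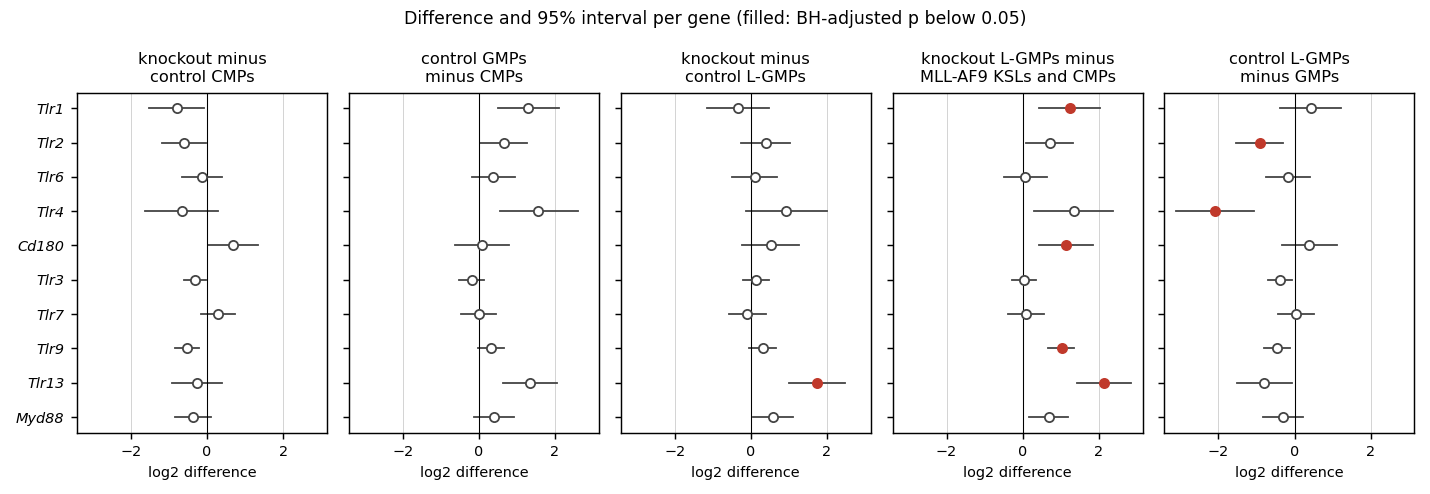
Difference in log2 level of each gene with its 95% interval from limma, in 5 comparisons; filled points had an adjusted p below 0.05. Filled points are Tlr13, Tlr9, Cd180 and Tlr1 in knockout L-GMPs against MLL-AF9 knockout progenitors, Tlr13 in knockout against control L-GMPs, and Tlr4 and Tlr2 in control L-GMPs against GMPs.

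Among the lipopeptide receptors, Tlr1 separated GMPs from CMPs and knockout from control CMPs. Its log2 level was 5.05, 4.95, 4.62 and 4.98 in control CMPs, 6.65, 6.15 and 5.80 in control GMPs and 4.29, 3.93, 4.06 and 4.11 in knockout CMPs. No array of 1 of these groups overlapped another. GMPs were 1.30 ± 0.37 (SE) log2 units above CMPs (limma, adjusted p = 0.154; 0.0343 with only the 7 arrays compared). Knockout CMPs differed from control CMPs by -0.80 ± 0.34 (adjusted p = 0.26; 0.00488 with only the 8 arrays compared). Knockout L-GMPs stood at 6.51 in the primary mouse and 5.99 and 6.10 in the second transplants. The knockout progenitors without leukaemia split by mouse: KSLs and CMPs of 1 mouse gave 6.08 and 5.83, those of another 4.40 and 4.51, and the CMPs of the last mouse 4.22. Tlr1 rose 2.34-fold from these progenitors to the L-GMPs (1.23 ± 0.37, adjusted p = 0.0384). The adjusted p was 0.435 with only the 8 arrays compared and 0.373 with the leukaemia averaged into 1 sample, and 4 of 9 alternatives kept the call. Leaving out 1 array ended that call for 6 of 8 arrays (each of the 3 L-GMP arrays, the second KSL array, and CMP arrays 2 and 3), with adjusted p up to 0.13, and the difference was 0.81 without the second KSL array. Control L-GMPs reached 7.04 and 7.54 in second transplants against 5.72 and 6.17 in primary mice.

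Tlr2, the partner of TLR1 and TLR6, followed Tlr1 in the CMPs. Its level was 6.45, 6.70, 6.90 and 7.15 in control CMPs and 6.16, 6.28, 6.22 and 6.10 in knockout CMPs, without overlap (-0.61 ± 0.27, limma adjusted p = 0.279; 0.0276 with only the 8 arrays compared). GMPs gave 7.66, 7.12 and 7.59, which overlapped the CMPs by 1 array. Control L-GMPs gave 6.50 and 5.17 in primary mice and 7.07 and 7.41 in second transplants. Tlr2 fell from GMPs to control L-GMPs by 0.92 ± 0.29 (limma, adjusted p = 0.0313). Without the second primary array the difference was -0.59, and leaving out 1 array ended the call for 4 of 7 arrays (that one, the first of the second transplants, and GMP arrays 1 and 3). The call was also lost with only these 7 arrays fitted (adjusted p = 0.126). The second transplants alone differed by -0.22 ± 0.28 (adjusted p = 0.628). Tlr6 is a close paralogue and neighbour of Tlr1, and cross-hybridisation between their probes was not tested. It ranged from 4.58 to 6.31 over the 23 arrays. It passed in no comparison of the 23-array fit, and its difference between knockout and control CMPs was -0.13, with a 95% interval from -0.66 to 0.39.

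Tlr4, the lipopolysaccharide receptor, was high in normal GMPs and low in control L-GMPs. GMPs gave 6.70, 7.04 and 7.05, above every other array of the series. Control CMPs gave 5.59, 4.99, 5.31 and 5.60, and the 3 GMP arrays were 1.56 ± 0.48 above them (2.95-fold, limma adjusted p = 0.216; 0.0152 with only the 7 arrays compared). Control L-GMPs gave 6.23 and 3.59 in primary mice and 4.71 and 4.81 in second transplants, all below the GMPs. The first primary array, the highest of the 4, also held Il7r, a lymphoid gate gene, at 9.34, against 3.76 to 4.17 on the other 3. Tlr4 fell by 2.10 ± 0.48 from GMPs to control L-GMPs (4.28-fold, adjusted p = 0.00635). It passed without any 1 of the 7 arrays, with differences from -2.76 to -1.44, and missed the threshold when only these arrays were fitted (adjusted p = 0.0722). Tlr4 and Tlr2 were the 2 of 10 that passed in that comparison, where 25.3% of genes passed, 14.7% downward. Tlr3, Tlr4 and Tlr9 were the 3 whose arrays did not overlap, against 30.8%. Transplanted and untransplanted cells also differed in experiment, and the 2 cannot be told apart.

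Without C/EBPa, Tlr4 stood at 4.41, 4.89, 4.44 and 5.06 in CMPs, 1 array overlapping the controls (-0.67 ± 0.45, limma adjusted p = 0.586). Knockout L-GMPs gave 5.90 in the primary mouse and 5.35 and 5.90 in second transplants. Progenitors without leukaemia gave 4.69 and 4.53 in KSLs and 3.38, 4.03 and 5.31 in CMPs, below all 3 L-GMP arrays (1.34 ± 0.48, adjusted p = 0.0827). With the secondary L-GMPs alone this difference passed (1.20 ± 0.37, adjusted p = 0.0385).

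Cd180 encodes a receptor of B cells and myeloid cells that lacks a signalling domain of the Toll type, and it was the 1 gene of the 10 with every knockout CMP array above every control array. Control CMPs gave 8.39, 8.45, 8.57 and 8.17 and knockout CMPs 9.12, 9.17, 9.09 and 8.98. The difference was 0.69 ± 0.31 (1.62-fold, limma adjusted p = 0.293; 0.00297 with only the 8 arrays compared). GMPs, at 9.01, 8.18 and 8.24, overlapped the control CMPs. In MLL-AF9 knockout CMPs Cd180 was scattered, at 7.29, 8.05 and 9.02, and KSLs gave 9.00 and 7.74. Knockout L-GMPs gave 9.05 in the primary mouse and 9.84 and 9.62 in second transplants. Cd180 rose 2.21-fold from the progenitors to these L-GMPs (1.15 ± 0.34, adjusted p = 0.0324). The call was lost without either secondary L-GMP array or the second KSL array (adjusted p up to 0.105), with only the 8 arrays compared (0.409) and with the leukaemia averaged into 1 sample (0.227).

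Of 5 co-receptor and ligand-transfer genes measured, 3 fell in knockout CMPs (Ly86, Lbp and Cd14), where 4.91% of all genes passed. The same 3 rose in the knockout leukaemia over its progenitors, where 13.2% of all genes passed, 7.27% upward. Cd36, also among the 5, lay at the floor of 3 on every L-GMP array. Ly86 encodes MD-1, the protein bound to CD180, and its direction in knockout CMPs was opposite to that of Cd180. Ly86 stood at 9.25, 9.32, 9.07 and 9.58 in control CMPs and at 6.01, 4.83, 5.65 and 4.52 in knockout CMPs. It fell by 4.05 ± 0.35 (16.60-fold, limma adjusted p = 5.52e-06). In knockout L-GMPs Ly86 was back at 10.38, 10.54 and 10.34, a rise of 5.03 ± 0.38 over the progenitors without leukaemia (adjusted p = 2.97e-07). Over the 9 group means Cd180 and Ly86 had a Pearson r of 0.43.

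Lbp, which carries lipopolysaccharide to CD14, fell by 3.07 ± 0.19 in knockout CMPs (limma adjusted p = 1.82e-07), rose by 0.95 ± 0.20 from CMPs to GMPs (adjusted p = 0.0321) and rose by 3.67 ± 0.20 from knockout progenitors to L-GMPs (adjusted p = 1.32e-08). Cd14, the co-receptor that hands lipopolysaccharide to TLR4, fell by 1.96 ± 0.44 in knockout CMPs (adjusted p = 0.0155) and rose by 2.75 ± 0.48 in knockout L-GMPs over progenitors (adjusted p = 8.36e-04). One control CMP array stood apart for Cd14, at 4.69 beside 6.82, 6.39 and 7.38. Ly96, the MD-2 subunit that TLR4 needs to bind lipopolysaccharide, passed in none of the 8 comparisons and overlapped in each of the 7 between groups. Its difference between knockout and control CMPs was -0.48 ± 0.39 (adjusted p = 0.718).

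**Figure D3:**
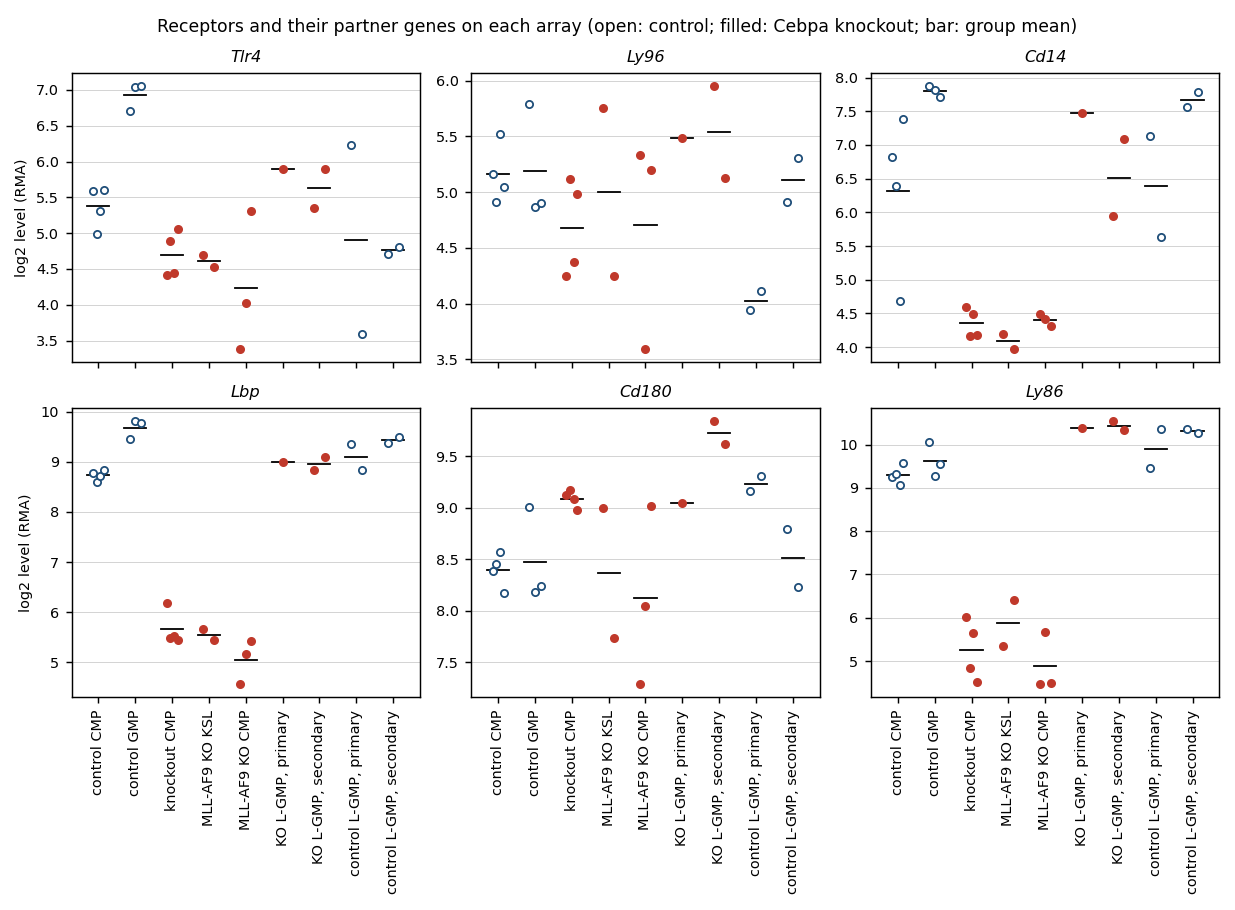
Log2 level (RMA) of Tlr4 and its partners Ly96, Cd14 and Lbp, and of Cd180 and its partner Ly86, on each array by group; open points are control, filled points knockout arrays, and bars are group means. Ly86 lay at or below 6.41 on every knockout array without leukaemia and at or above 10.34 on the 3 knockout L-GMP arrays, whereas Ly96 overlapped between the groups compared.

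Tlr13, an endosomal sensor of bacterial ribosomal RNA on the X chromosome, had its highest levels in the transplanted knockout leukaemia. The 2 second transplants gave 7.78 and 6.92, and the primary mouse from which they came gave 5.10. Control L-GMPs gave 3.83 and 4.12 in primary mice and 5.02 and 4.99 in second transplants, all below the knockout L-GMPs. Tlr13 rose 3.33-fold from control to knockout L-GMPs (1.74 ± 0.35, 95% interval 1.00 to 2.47, limma adjusted p = 0.0107). The difference was 2.86 without the primary knockout array and 2.35 ± 0.45 between second transplants alone (adjusted p = 0.00812). It passed without any 1 of the 7 arrays, with an adjusted p of at most 0.0441. It did not pass with array weights (0.0538), with high Xist as a covariate (0.0584), with the 3 knockout arrays averaged into 1 sample (0.0782) or with only the 7 arrays compared (0.167). The first knockout array of the second transplants was the highest of the series.

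The knockout progenitors without leukaemia held Tlr13 low, at 4.81 and 3.75 in KSLs and 3.82, 3.95 and 3.92 in CMPs. Tlr13 rose 4.41-fold from these to the knockout L-GMPs (2.14 ± 0.33, limma adjusted p = 3.49e-04), and the difference was 3.27 with the second transplants alone. It missed the threshold when only the 8 arrays compared were fitted (adjusted p = 0.0522). In untransplanted marrow control CMPs gave 3.99, 3.92, 3.84 and 3.98 and knockout CMPs 3.54, 3.66, 3.68 and 3.81, which did not overlap (-0.26 ± 0.31, adjusted p = 0.877; 0.0284 with only the 8 arrays compared). These CMP levels were dim, near the floor of 3. GMPs gave 6.39, 4.92 and 4.54, each above every CMP (1.35 ± 0.33, adjusted p = 0.0768). The difference was 0.80 without the first GMP array.

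The knockout effect on Tlr13 differed between the leukaemia and the CMPs. It was higher by 2.00 ± 0.46 in L-GMPs than in CMPs (limma, adjusted p = 0.0273), and Tlr13 was the 1 of 10 genes that passed this test, where 2.8% of genes passed. This call was lost with high Xist as a covariate (adjusted p = 0.188), with the 3 knockout arrays averaged (0.0691), with the replicate number as a block (0.0869) and without 1 of 8 of the 15 arrays (up to 0.0699). The difference was 3.12 without the primary knockout L-GMP array. With only the 15 arrays compared Tlr13 passed (8.02e-04), and so did Myd88 (0.94 ± 0.23, adjusted p = 0.0332; 0.161 over all 23 arrays).

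Tlr9, the receptor for unmethylated CpG DNA, was lower on the knockout arrays without leukaemia. Control CMPs gave 5.13, 5.57, 5.45 and 5.71 and knockout CMPs 5.25, 4.77, 4.93 and 4.82, 1 array of each overlapping. The difference of -0.52 ± 0.15 had the lowest adjusted p of the 10 genes in that comparison (limma, 0.0618), and it passed without the first control array (-0.63 ± 0.15, adjusted p = 0.0301) or the first knockout array (adjusted p = 0.0442). Knockout progenitors with MLL-AF9 were lower still, at 4.45 and 4.65 in KSLs and 4.67, 4.60 and 4.74 in CMPs, the CMPs below all 4 untransplanted knockout arrays. Knockout L-GMPs gave 5.38, 5.90 and 5.86. Tlr9 rose 2.02-fold from the progenitors to these L-GMPs (1.02 ± 0.16, adjusted p = 4.55e-04). The call held without any 1 of the 8 arrays (adjusted p at most 0.00218), with only these arrays fitted (0.0236) and with the knockout leukaemia averaged into 1 sample (0.0149). Control L-GMPs, at 4.94, 5.43, 5.47 and 5.44, lay below the GMPs (6.12, 5.63 and 5.58; -0.46 ± 0.16, adjusted p = 0.0506).

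Tlr3 and Tlr7, the sensors of double-stranded and single-stranded RNA, were dim and narrow. Tlr3 ranged from 3.19 to 4.37 and Tlr7 from 3.70 to 4.77 over the 23 arrays. Tlr3 lay between 3.49 and 4.37 in control CMPs and between 3.52 and 3.87 in knockout CMPs (-0.31 ± 0.14, limma adjusted p = 0.285). Without the second control array that difference was -0.48 ± 0.11 (adjusted p = 0.0207), and without the first it was -0.19 (0.649). Tlr3 was lower on all 4 control L-GMP arrays, at 3.19 to 3.52, than on the 3 GMP arrays, at 3.70 to 3.87 (-0.38 ± 0.15, adjusted p = 0.078; 0.0464 with only the 7 arrays compared). Tlr7 passed in no comparison, and its widest difference was -0.39 ± 0.22, between MLL-AF9 and untransplanted knockout CMPs. RMA compresses differences between such dim levels.

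Unc93b1, the chaperone that takes the nucleic acid-sensing receptors to endosomes, fell by 1.97 ± 0.27 in knockout CMPs (limma adjusted p = 4.31e-04) and rose by 2.04 ± 0.29 in knockout L-GMPs over progenitors (adjusted p = 1.35e-04). It stood at 8.32 to 8.73 in control and 6.28 to 6.65 in knockout CMPs. Its knockout effect was higher in L-GMPs than in CMPs by 2.04 ± 0.40 (adjusted p = 0.0103). Hsp90b1, the folding chaperone of most Toll-like receptors, fell by 0.52 ± 0.12 in knockout CMPs (adjusted p = 0.0159). Lyst, a regulator of endosome and lysosome traffic, rose by 1.27 ± 0.17 from CMPs to GMPs (adjusted p = 0.00144) and by 0.82 ± 0.17 from control to knockout L-GMPs (adjusted p = 0.0144).

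Myd88 is the adaptor below most of these receptors, and its arrays in untransplanted marrow fell into 3 separate levels. Control CMPs gave 7.31, 7.16, 7.41 and 7.39, GMPs 7.61, 7.72 and 7.81 and knockout CMPs 7.01, 7.02, 6.98 and 6.81. No array of 1 group overlapped another. Knockout CMPs differed by -0.36 ± 0.22 (limma, adjusted p = 0.534; 0.0181 with only the 8 arrays compared) and GMPs by 0.40 ± 0.24 (adjusted p = 0.878; 0.0566 with only the 7 arrays compared). Knockout L-GMPs gave 7.87, 7.85 and 8.34, above the KSLs (7.39 and 7.06) and CMPs (7.73, 6.57 and 7.83) without leukaemia by 0.68 ± 0.24 (adjusted p = 0.0759). Control L-GMPs, at 7.40, 6.71, 7.90 and 7.60, overlapped both.

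None of the 10 genes passed between MLL-AF9 and untransplanted knockout CMPs, or between KSLs and CMPs of the MLL-AF9 knockout recipients. MLL-AF9 and untransplanted CMPs also differed in transplantation, cytokine culture and infection, which cannot be told apart from the fusion gene. Against untransplanted knockout CMPs 0 of 10 passed with limma, where 4.88% of genes passed, and 1 of 10, Cd180, had an unadjusted p below 0.05 (-0.97 ± 0.34, adjusted p = 0.117). It passed without the third MLL-AF9 CMP array (-1.42 ± 0.31, adjusted p = 0.0107) and was -0.56 (0.37) without the first. Myd88 passed without the second (0.82 ± 0.18, 0.0155) and was 0.20 without the third. Arrays did not overlap for Tlr13, which was higher, and Tlr9, which was lower, 2 of 10 against 16.3% of genes. MLL-AF9 CMPs against KSLs gave 0 of 10, where 3.32% passed. There 0 had an unadjusted p below 0.05 and 0 did not overlap, against 19.4% of genes. With the 2 shared mice as a replicate block this count was also 0.

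Of 65 further genes of the pathway 58 were measured, and they were listed with earlier results of these data known. In knockout CMPs 6 rose and 6 fell, where 4.91% of all genes passed. Those that fell were the partners and chaperones named above and Irf8, a transcription factor of the monocyte path, which fell by 2.98 ± 0.27 (limma adjusted p = 8.72e-06). Of 8 measured transcription factors the NF-kB subunits Relb (1.08 ± 0.18, adjusted p = 0.00244), Rel (1.29 ± 0.30, 0.0184), Rela (0.58 ± 0.14, 0.0199) and Nfkb2 (0.73 ± 0.19, 0.0388) rose. Their inhibitor Nfkbia rose by 0.91 ± 0.22 (adjusted p = 0.0214), 1 of 9 inhibitors, and Tab2, which links receptors to kinases, by 0.36 ± 0.09 (0.0269), 1 of 15 adaptors and kinases. None of 12 target genes passed, and Ptgs2 gave -1.03 ± 0.30 (adjusted p = 0.0589).

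In knockout L-GMPs over progenitors 14 of the 58 genes rose and 3 fell, where 13.2% of all genes passed, 7.27% upward. Besides Lbp, Ly86 and Cd14 there were Pik3ap1, an adaptor listed with the transport genes (1.46 ± 0.15, limma adjusted p = 5.87e-06), Lyst, Unc93b1 and Slc15a4, 4 of 7 chaperones and transport genes. Of the adaptors and kinases Tirap, which brings MYD88 to TLR2 and TLR4, rose by 0.90 ± 0.15 (adjusted p = 5.14e-04), with Tbk1, Tab2 and Ikbkg. The transcription factors Irf8 and Irf5 rose, by 1.53 ± 0.29 and 1.23 ± 0.32, as did Irak3, an inhibitor, by 1.11 ± 0.32. Tnfaip3, an inhibitor, fell by 1.89 ± 0.46 (adjusted p = 0.0111), Ccl5, a target, by 3.42 ± 0.83 (0.011) and Irf3 by 0.39 ± 0.11 (0.0307). Ccl5 stood at 12.33 and 9.76 in KSLs and 11.93, 10.18 and 6.68 in CMPs of these progenitors. Of lymphoid genes, Il7r and 1 T cell marker passed downward in the L-GMPs, and 1 B cell marker, Cd79b, passed upward. Il7r, at 9.09 and 9.78 in KSLs and 5.02, 8.37 and 3.71 in CMPs, fell by 3.76 ± 0.98 (0.017), and Cd3d, 1 of 5 T cell markers, by 0.76 ± 0.21 (0.023). Their part in these results was not tested. Between control GMPs and CMPs 4 rose (Lbp, Lyst, Ikbke and Tlr8) and 0 fell, where 1.05% of all genes passed. Tlr8 lay between 3.00 and 3.23 in CMPs and at 4.29, 3.54 and 3.79 in GMPs, near the floor. Between knockout and control L-GMPs 4 rose (Ikbkg, Lyst, Pik3ap1 and Cxcl10) and 2 fell (Ticam2 and Ikbke), where 3.27% of all genes passed. Cxcl10 was high on the primary knockout array alone, at 8.64, and the second transplants, at 4.85 and 4.84, lay below all 4 control L-GMP arrays (4.90 to 6.28).

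**Figure D4:**
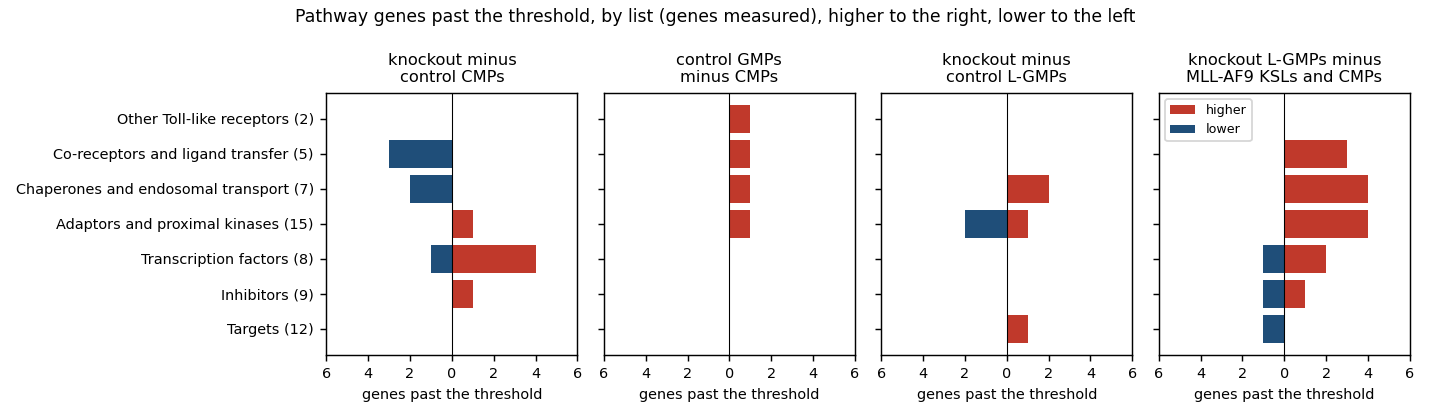
Number of measured genes of each pathway list that passed in 4 comparisons, higher to the right and lower to the left; the genes measured per list are in brackets. In knockout CMPs 3 co-receptors and 2 chaperones were lower and 4 transcription factors higher, and in knockout L-GMPs against progenitors 3 co-receptors, 4 chaperones and transport genes and 4 adaptors were higher.

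Markers of the monocyte path fell in knockout CMPs and most rose in knockout L-GMPs over progenitors, as Lbp, Ly86, Cd14 and Unc93b1 did. The other partner and chaperone genes did not pass in both comparisons. All 5 measured monocyte markers (Csf1r, Ccr2, F13a1, Mpeg1 and Ms4a6c) fell in knockout CMPs, with a median of -3.17, where 4.91% of all genes passed. Their mean log2 level was 8.47 to 8.74 on control, 4.83 to 5.72 on knockout CMP arrays, 8.90 to 9.87 in GMPs, 4.64 to 5.79 in MLL-AF9 knockout progenitors and 7.67 to 8.58 in L-GMPs. From control CMPs to GMPs, where Lbp and Lyst rose, 0 of 5 passed, against 1.05% of all genes. In knockout L-GMPs over progenitors 4 of 5 rose, all but Ccr2, where 13.2% of all genes passed, 7.27% upward. The median of the 5 was 3.81. Between knockout and control L-GMPs none of the 5, and none of the 54 markers measured over all lists, passed, where 3.27% of all genes did. The median of the 8 mature neutrophil markers there was -0.66 against 0.00 over all genes. The mean of 4 erythroid markers was 6.70 to 8.67 in the MLL-AF9 progenitors and 4.90 to 5.16 in knockout L-GMPs. All 4 (Gata1, Car1, Klf1 and Epor) fell, where 13.2% of all genes passed. The 7 B cell markers, of cells that carry much CD180, averaged 4.91 to 5.10 in knockout and 4.96 to 5.12 in control CMPs. Of these 0 of 7 passed, where 4.91% of all genes did. From knockout progenitors to L-GMPs 1 of the 7 B cell markers passed, where 13.2% of all genes did. This was Cd79b, which rose by 1.49 ± 0.19 (limma adjusted p = 6.64e-05). The median of the 7 was -0.20 against -0.02 over all genes. Means of Cd79a, Ms4a1, Pax5, Ebf1 and Vpreb1 were lower in the L-GMPs and that of Igll1 higher. From GMPs to control L-GMPs 3 of 7 rose (Cd79a, Ms4a1 and Cd79b), where 25.3% of all genes passed. Ms4a1 lay near the floor, at 3.17 to 3.82 in control L-GMPs. Other lists also held calls. In knockout CMPs 1 of 8 mature neutrophil markers (Cxcr2) and 1 of 8 macrophage markers (Cd68) fell. In knockout L-GMPs over progenitors 2 of 8 macrophage markers (Adgre1 and Cd68) and 1 of 8 neutrophil markers (Lcn2) rose. There 1 of 8 dendritic cell markers (Cd74) and 2 of 4 megakaryocyte markers (Pf4 and Itga2b) fell. From CMPs to GMPs 3 neutrophil markers passed (S100a8, Lcn2 and Cxcr2), 2 of them upward. The part of cell composition in these results was not tested, and in bulk samples fewer cells of a type cannot be told apart from less RNA per cell.

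Of the genes outside the pathway, those with the most similar pattern over the 9 group means were, for Tlr13, Hacl1 (Pearson r = 0.96), Lpgat1 (0.94) and Rbm47 (0.94). For Tlr1 they were Phyh (0.97), Map3k15 (0.97) and Unc50 (0.96), and for Tlr4 Clec5a (0.98), Mx1 (0.95) and Slc35f5 (0.94). Clec5a varied with Tlr4 over a span of 4.48 log2 units and Mx1 over 0.64. These are descriptions over 9 points that share arrays, picked as the highest of all genes.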

How the data were processed

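Sorted cells were extracted with Trizol and their RNA amplified with the NuGen Ovation Pico WTA system before hybridisation, per the labels' protocols. The deposited values are log2 expression levels of 34760 probe sets, made by the authors with RMA, per the submitters' processing notes; the RMA version, array annotation and genome build are not given in the sources used here. The deposited table has a floor of 3, which 2952 to 3379 probe sets reached on each array. Raw intensities were not used here, so background correction was not repeated. The number of arrays limits the precision.

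Probe sets took their gene from GEO's platform annotation, which can be old: 21640 had 1 symbol, 1321 several and 11799 none, and 21553 of the first matched RefSeq by Entrez ID with 0 symbols changed. One probe set per gene, that with the highest mean, left 19937 genes. The 9 group means were fitted over 23 arrays with limma 3.58.1 in R 4.3.3 (lmFit, eBayes with trend). Contrasts over primary and secondary L-GMPs, or over KSLs and CMPs, weight each group equally, so such a mean differs from the mean of its arrays. Benjamini-Hochberg adjustment ran over all genes with a threshold of 0.05, and errors after ± are standard errors of limma's differences. On data simulated on these 19937 genes the fit recovered 89% of 2-fold changes between knockout and control CMPs and 78% between GMPs and CMPs. It recovered 74% between knockout and control L-GMPs and 59% in the difference of knockout effects. The simulation gave each gene 1 spread for all arrays and treated all arrays as independent. It lacks the wider scatter of the transplanted groups and the shared origin of the knockout L-GMPs, so shares involving L-GMPs can be too high.

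The genes and lists were chosen with earlier results of these data known. Named were the 10 genes throughout and the 3 genes most correlated with each of the 10 whose group means spanned at least 2 log2 units. From the lists up to 4 passing genes per comparison were named by adjusted p, or 1 with its values where none passed. Not every list and comparison is given. Alternatives were array weights, the arrays compared alone, arrays centred again on their medians, genes of mean log2 level of at least 5, the mean of all probe sets, high Xist as a covariate, the knockout leukaemia averaged into 1 sample, each array left out, and replicate number as a block. KSL and CMP arrays of the same number came from 1 mouse, and their deviations from the group means correlated at 0.46 and 0.30, so that comparison is paired. Same-numbered arrays of the other groups correlated at -0.23 to 0.22 and share only a number. RefSeq promoters were searched on both strands for 250 bases before the start.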

Additional observations from a re-analysis of the deposited data

Results flagged for a closer look

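The knockout effect on Tlr13 was higher in L-GMPs than in CMPs by 2.00 ± 0.46 log2 units (limma interaction contrast, adjusted p = 0.0273), the 1 difference of this kind among the 10 genes that passed the test. All 3 knockout L-GMP arrays lay above the 4 control L-GMP arrays, where 13.9% of all genes did not overlap in either direction. All 4 knockout CMP arrays lay below the 4 control CMP arrays, as for 11.3% of all genes. That CMP difference was -0.26 ± 0.31 (limma, adjusted p = 0.877), at levels of 3.54 to 3.99, near the floor of 3. The 3 knockout L-GMP arrays come from 1 leukaemia, whose primary mouse had received IL-3 and GM-CSF vectors, and Tlr13 lies on the X chromosome while high Xist was found on 3 of 3 knockout and 1 of 4 control L-GMP arrays. With high Xist as a covariate the difference was 1.85 (adjusted p = 0.188). The part of sex and of the injected vectors was not tested. For the 10 genes in the 2 groups of 4 arrays, 20 sets in all, no array stood further from the others than Dixon's critical value allows.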

How the results depend on the processing

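Counts are of the 10 genes passing, then of all genes passing. Alternatives restricted to second-transplant L-GMPs or to the 11 arrays of untransplanted marrow were chosen after seeing the data. Knockout against control CMPs (0; 979) gave 6; 3762 with array weights, 5; 3220 with only the arrays compared, 5; 3425 with the 11 untransplanted arrays, 1 without dim genes, 1 after centring and 593 genes with high Xist as a covariate. GMPs against CMPs (0; 209) gave 4; 1257 with weights, 2; 643 with only the arrays compared, 3; 1140 with the 11 arrays and 1 after centring. Knockout against control L-GMPs (1; 651) gave 0 with weights, 0 with Xist, 0; 11 with only the arrays compared, 0; 90 with the leukaemia averaged and 0 without dim genes, a filter that removes Tlr13 itself. Knockout L-GMPs against progenitors (4; 2632) gave 1; 347 with only the arrays compared and 2; 952 with the leukaemia averaged. MLL-AF9 CMPs against KSLs (0; 662, with 4029 genes at an unadjusted p below 0.05 in limma) gave 3 genes with weights and 0 with only the arrays compared. MLL-AF9 against untransplanted knockout CMPs (0; 972) gave 335 genes with weights, 443 with only the arrays compared and 192 with Xist. Control L-GMPs against GMPs (2; 5052) gave 1; 3258 with only the arrays compared and 1 with second transplants. The difference of knockout effects (1; 558) gave 2; 1280 with weights, 2; 1582 with only the arrays compared, 0; 245 with Xist, 0; 159 with the leukaemia averaged and 2; 902 with second transplants. The causes were not tested.

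The replicate number as a block gave 612 genes for MLL-AF9 against untransplanted knockout CMPs, 2980 for control L-GMPs against GMPs, and 0; 340 for the difference of knockout effects. In the paired comparison of MLL-AF9 CMPs with KSLs the block gave 0 of the 10 and 806 genes. Elsewhere numbers do not pair the samples.

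Leaving out 1 array gave 0 to 1 of the 10 and 530 to 817 genes for knockout against control CMPs, 0 to 1 and 70 to 196 for GMPs against CMPs, 1 to 2 and 409 to 2449 for knockout against control L-GMPs, 2 to 5 and 1947 to 3276 for knockout L-GMPs against progenitors, 0 to 1 and 355 to 2850 for MLL-AF9 CMPs against KSLs, 0 to 1 and 490 to 2035 for MLL-AF9 against untransplanted knockout CMPs, 1 to 3 and 2764 to 6494 for control L-GMPs against GMPs, and 0 to 3 and 383 to 1603 for the difference of knockout effects. Without 1 array Tlr4 also passed between knockout and control L-GMPs (the first primary control array; 1.59 ± 0.38, adjusted p = 0.0158), Tlr13 between GMPs and CMPs (the third GMP array; 0.0348) and Tlr6 between MLL-AF9 CMPs and KSLs (the second KSL array; -1.18 ± 0.28, 0.013). No difference that passed changed sign in any alternative run. Of 1266 values of single genes under alternatives, 46 turned sign, none of them passing, the widest of which was 0.46 in size. Every knockout leukaemia result rests on 1 leukaemia, and dim levels such as those of Tlr3, Tlr7 and, in CMPs, Tlr13 limit what the arrays can show.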

Other observations

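Among the 10 genes, Tlr13 and Myd88 had a Pearson r of 0.88 over the 9 group means, Tlr4 and Tlr9 0.77 and Tlr6 and Tlr7 -0.80, as descriptions over points that share arrays. Tlr1 and Tlr6, which are neighbours on chromosome 5, had 0.58, and cross-hybridisation between probes of these paralogues was not tested. Tlr12, which senses parasite profilin, fell by 0.79 ± 0.16 from untransplanted to MLL-AF9 knockout CMPs (limma, adjusted p = 0.012). In the same comparison the NF-kB subunit Rel fell by 1.67 ± 0.32 (adjusted p = 0.00848) and the cytokine gene Il1b rose by 1.06 (adjusted p = 0.0455). From GMPs to control L-GMPs 5 of the 58 pathway genes rose and 7 fell, where 25.3% of all genes passed. Of these, Sigirr, an inhibitor of Toll-like receptor signalling, rose by 0.58 ± 0.11 (adjusted p = 0.00257), and Ticam2, the bridging adaptor of TLR4, fell by 1.09 ± 0.25 (adjusted p = 0.00574).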
